A study of Marmota monax with 203 samples.

Results

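The genes described here are the 10 fatty acid synthesis genes FASN, ACACA, ACLY, SCD, ELOVL6, ME1, THRSP, SREBF1, MLXIPL and AACS, chosen by name out of 17587 genes listed for woodchuck liver, and all 10 had reads in every one of the 203 sequencing runs. The samples were liver biopsies of adult woodchucks (Marmota monax) that carried chronic woodchuck hepatitis virus (WHV) after infection at 3 days of age; every animal of both groups was a carrier, so no uninfected liver enters these comparisons. 12 animals received placebo (vehicle) and 11 received recombinant woodchuck IFN-α5 (wIFN-α) by subcutaneous injection 3 times a week, first at a low dose (biopsies at weeks 0 and 3), then at a high dose (biopsies at weeks 7, 11 and 15), followed by treatment-free weeks 19 and 23. Biopsies of the dosing weeks were collected within hours of an injection and those of weeks -3, 19 and 23 without one. A further treated animal, M1004, was left out because the study judged that it was probably clearing WHV on its own. Each biopsy is 1 animal at 1 week, and the number fell from 11 treated and 12 placebo animals at week -3 to 6 and 5 at week 19 and 6 and 9 at week 23, in part because animals died or were euthanized.

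Hepatocytes make fatty acids from sugar by de novo lipogenesis. Citrate leaves the mitochondrion and is split by ATP citrate lyase (ACLY) to cytosolic acetyl-CoA, acetoacetyl-CoA synthetase (AACS) returns ketone bodies to the same pool for lipid synthesis, and malic enzyme (ME1) supplies NADPH. Acetyl-CoA carboxylase (ACACA) makes malonyl-CoA, and fatty acid synthase (FASN) builds palmitate from it. ELOVL6 lengthens palmitate to stearate, and stearoyl-CoA desaturase (SCD) introduces the double bond that yields oleate. THRSP (Spot 14) is a small lipogenic protein induced by thyroid hormone and carbohydrate. The program is controlled at the level of transcription by SREBF1, which encodes the insulin-responsive factor SREBP-1, and by MLXIPL, which encodes the glucose-sensing factor ChREBP. In the liver these genes are known for rising on feeding and falling on fasting.

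Levels are given as RPKM, that is reads scaled to transcript length and to library size, adjusted between biopsies by TMM (trimmed mean of M values), so that they can be set side by side between genes. The 149 biopsies held between 12072840 and 84805845 reads (median 28754894). The least covered member, AACS, had a median of 181 reads per biopsy and 16 in the lowest, whereas SCD had a median of 158295. Hepatocyte transcripts (12 markers, among them ALB and APOA1) took between 3.67% and 18.3% of reads in 147 biopsies. They took only 0.0363% in the week -3 biopsy of placebo animal F1016 and 0.0246% in that of the treated animal F1018, where 20 skeletal muscle markers took 14.6% and 14.9%, so these biopsies went against their liver label. In all, 21 biopsies had more than 1% muscle reads, 16 of them at weeks -3, 0 and 3. The interferon-induced genes MX1 and ISG15 served as a check of treatment. Medians of MX1 lay between 45.9 and 79.6 RPKM over the weeks in placebo animals, and between 592 and 961 RPKM at weeks 0 to 15 in treated animals. The biopsy labelled wIFN-α F1013 at week 3 had 80.1 RPKM of MX1 and 3.80 RPKM of ISG15, values inside the placebo range of that week for MX1 and below it for ISG15. MLXIPL in placebo animals is also given without the week -3 biopsy of F1016, and the week 3 comparison and the contrasts between effects also without F1013. The placebo lipid lists, the marker counts, the sex test and the correlations include F1016 and F1018 wherever their groups enter.

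In placebo animals the fatty acid synthesis genes rose steeply during the study. All 10 differed between weeks by edgeR's quasi-likelihood F test over the 8 weeks (adjusted p between 4e-13 for ELOVL6 and 7.16e-06 for MLXIPL), in a data set where 68% of the 15984 genes tested did so. Relative to week -3, 9 of 10 were higher at week 15 when calls required a change of more than 1.5-fold with an adjusted p below 0.05, against 5.39% of all genes called higher, 9.45% called lower and 14.8% in either direction. Their median log2 difference was 2.68, while the median over all genes was -0.07. The share of all genes without overlap between these 2 weeks was not counted. Together the 10 transcripts took a median of 0.104% of all reads at week -3 and 2.37% at week 15, of which SCD alone took 1.55%. MLXIPL was the exception at week 15. In bulk tissue, fewer cells of a type and less RNA per cell cannot be told apart, and the share of hepatocyte marker reads in placebo livers went from a median of 14.1% at week -3 to 8.74% at week 15. The part of that shift in these results was not tested. Of 9 adipocyte markers tested, 0 were called higher by edgeR and 3 lower between these weeks (7 had an unadjusted p under 0.05). F1016, with few hepatocyte reads, was included and held the highest adipocyte share at week -3, 0.180% against a placebo median of 0.0349%.

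**Figure D1:**
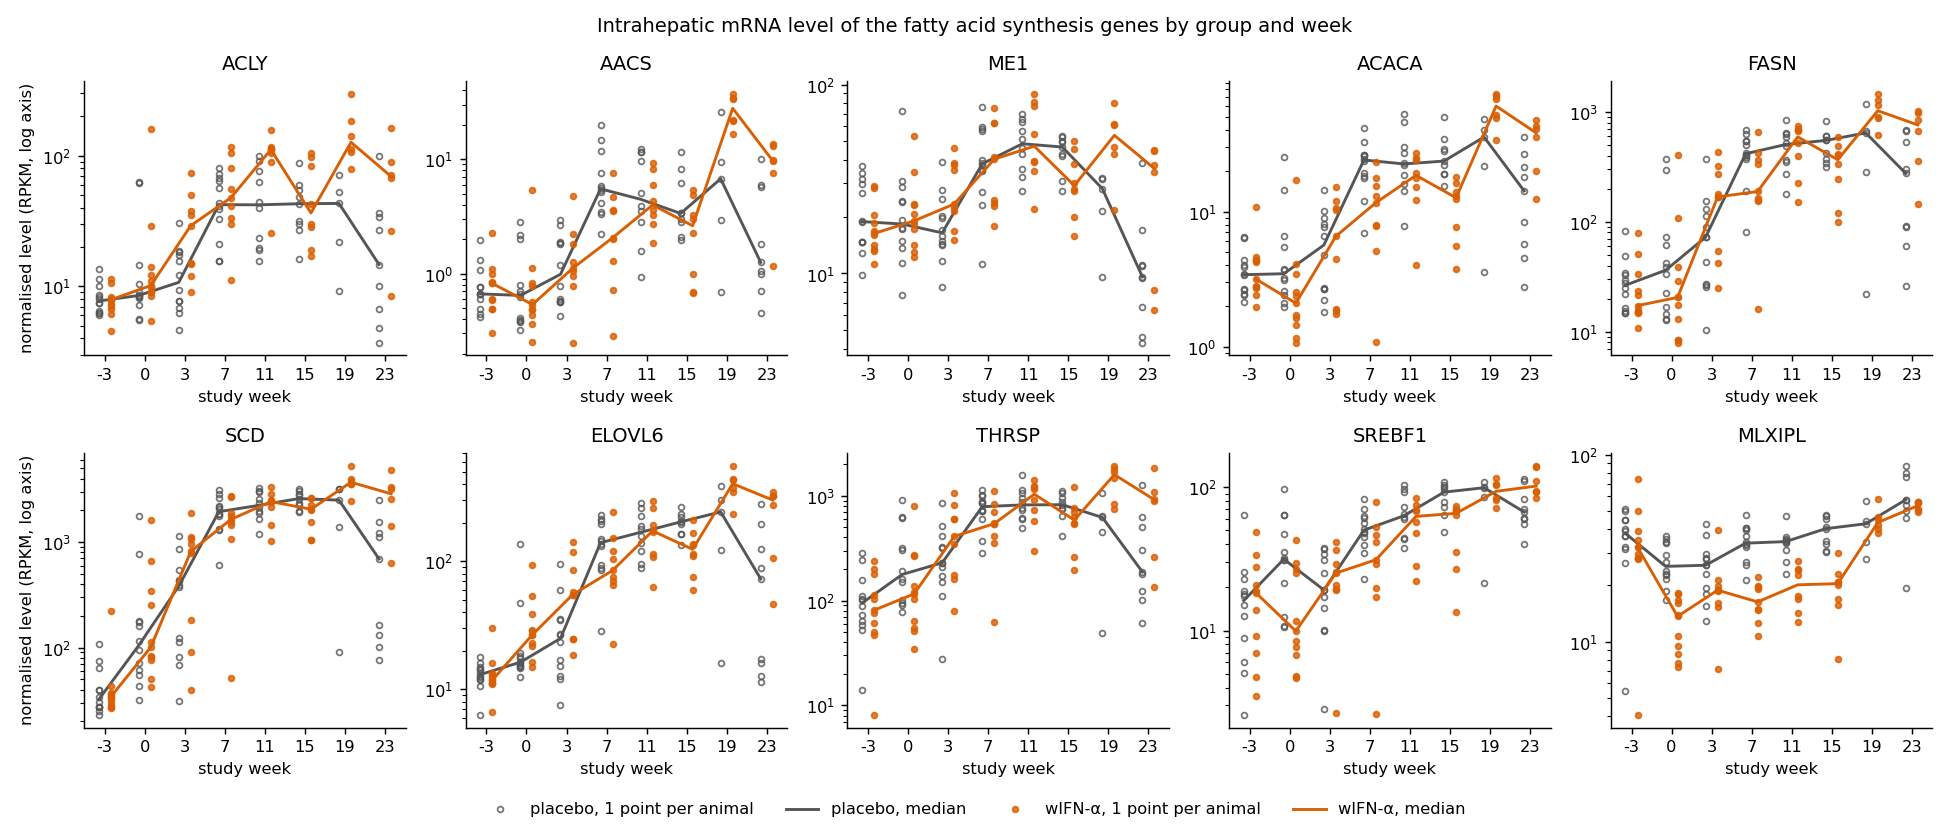
TMM-scaled RPKM (log axis) of each of the 10 genes by study week, 1 panel per gene, with every biopsy as a point and the group medians joined by lines, placebo and wIFN-α side by side. In placebo animals SCD went from a median of 32.1 RPKM at week -3 to 2591 RPKM at week 15, while MLXIPL stayed between medians of 25.3 and 57.5 RPKM over the 8 weeks.

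Among the genes that supply acetyl-CoA and NADPH, ACLY had a lowest, median and highest level of 6.07, 7.71 and 13.6 RPKM in the 12 placebo animals at week -3. At week 15 these values were 16.3, 42.8 and 88.1 RPKM in 9 animals. No animal at week 15 overlapped with week -3, and the log2 difference was 2.39 ± 0.44 (SE, adjusted p = 2.24e-05). AACS, the least abundant member, went from 0.415, 0.664 and 1.96 RPKM to 1.98, 3.35 and 11.6 RPKM. Its lowest level at week 15 was just above the highest at week -3, and the difference was 2.53 ± 0.49 (adjusted p = 6.11e-05). That highest level was from F1016, with few hepatocyte reads, and the next was 1.32 RPKM in M1008. ME1 held 9.87, 18.8 and 37.3 RPKM at week -3 and 27.4, 46.7 and 53.5 RPKM at week 15, a difference of 0.98 ± 0.30 (adjusted p = 0.00894), with 7 of 9 animals above the whole week -3 range. At week 23 ME1 was the 1 member that was lower than at week -3, with 4.29, 9.60 and 38.4 RPKM (log2 difference -0.83 ± 0.30, adjusted p = 0.0259). It was lower in 8 of the 9 animals with both biopsies. Without the biopsies holding over 1% muscle reads that difference was -0.77 and no longer passed (adjusted p = 0.0535).

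Both synthesis steps rose. ACACA, which sets the pace of the pathway, had 2.14, 3.41 and 6.52 RPKM at week -3 and 15.6, 23.6 and 50.4 RPKM at week 15, so that all 9 late biopsies lay above every early one. The log2 difference was 2.84 ± 0.41 (adjusted p = 1.62e-07). FASN had 14.7, 26.5 and 83.1 RPKM at week -3 and 318, 550.3 and 827 RPKM at week 15, again without overlap. This was a difference of 4.05 ± 0.56 (adjusted p = 5.65e-08), or 16.6-fold. Within the 9 animals biopsied at both weeks the ratio of FASN ranged from 7.04 to 40.3 with a median of 22.4.

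The enzymes that finish the product showed the steepest change of SCD and a change of ELOVL6 close to that of FASN. SCD had 22.9, 32.1 and 109 RPKM at week -3 and 1932, 2591 and 3214 RPKM at week 15. The groups of biopsies were separated by more than an order of magnitude, and the log2 difference was 5.87 ± 0.62 (adjusted p = 3.45e-11), or 58.4-fold. Each of the 9 animals rose, by 25.8-fold at the least and 115-fold at the most. ELOVL6 had 6.30, 13.1 and 17.9 RPKM at week -3 and 134, 203 and 264 RPKM at week 15. Its lowest week -3 level was that of F1016, with few hepatocyte reads. It too showed no overlap, with a difference of 3.90 ± 0.46 (adjusted p = 7.63e-10).

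THRSP was abundant and variable. Its levels of 13.9, 94.8 and 282 RPKM at week -3, the lowest in F1016 with few hepatocyte reads, became 416, 821 and 1119 RPKM at week 15 (2.86 ± 0.45, adjusted p = 1.02e-06), and all 9 animals exceeded the week -3 maximum.

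Of the 2 transcription factor genes, SREBF1 was called at week 15 and MLXIPL was not. The lowest week -3 level of each was that of F1016, with few hepatocyte reads. SREBF1 had 2.57, 16.2 and 63.6 RPKM at week -3 and 48.7, 92.5 and 109 RPKM at week 15, with 8 of 9 animals above the earlier range (log2 difference 2.22 ± 0.35, adjusted p = 1.4e-06). MLXIPL had 5.43, 38.0 and 51.6 RPKM at week -3 and 30.2, 40.3 and 47.4 RPKM at week 15, where the ranges overlapped entirely and the difference was 0.07 ± 0.20 (adjusted p = 0.839). With all biopsies it was called at week 23 alone, with 19.3, 57.5 and 87.7 RPKM (0.68 ± 0.20, adjusted p = 0.00499). That call fell below the 1.5-fold limit without the week -3 biopsy of F1016 (0.58) and without all biopsies over 1% muscle reads (0.58). Without that biopsy of F1016 MLXIPL was instead called lower than at week -3 at week 3 (-0.64, adjusted p = 0.00139).

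**Figure D2:**
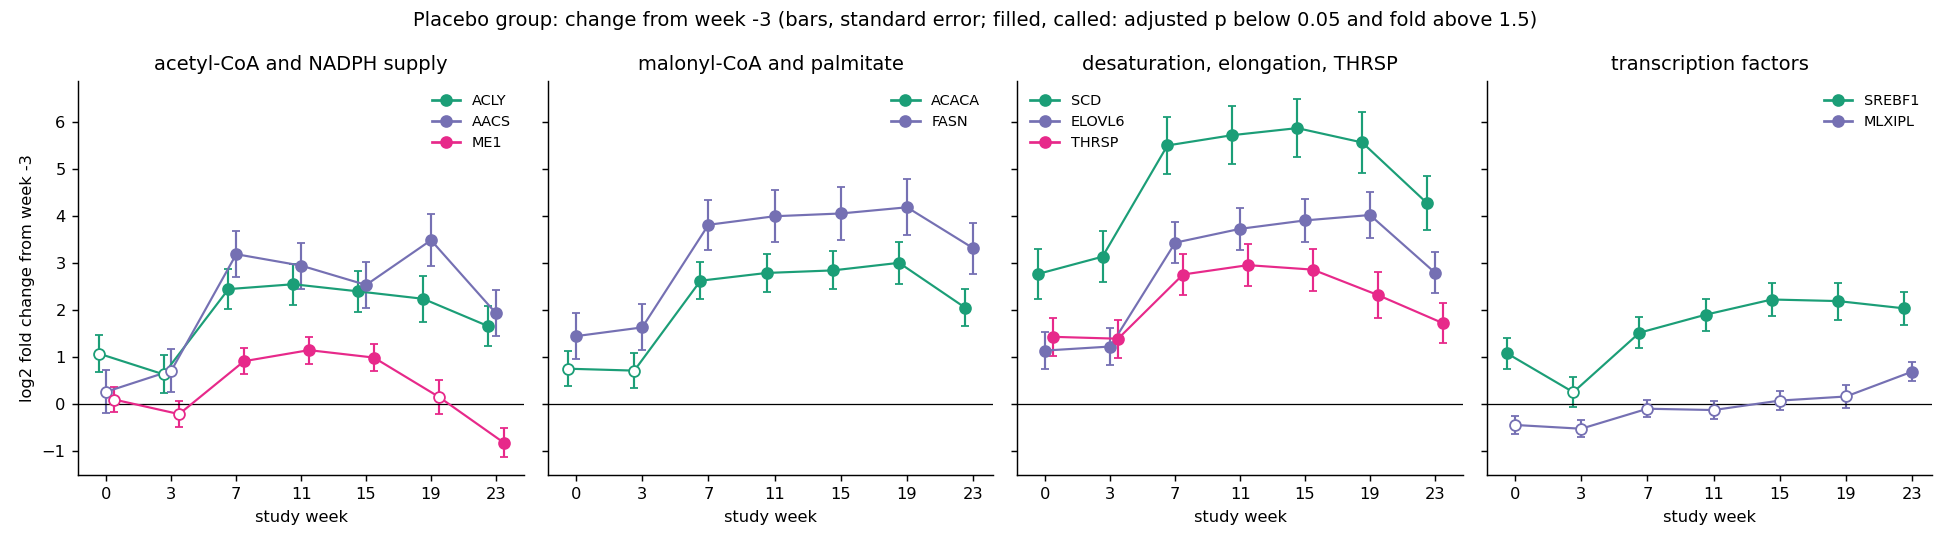
Log2 difference of each gene from week -3 in placebo animals (y axis, with SE bars) against study week (x axis), in 4 panels by role; filled points have an adjusted p below 0.05 and a fold change above 1.5. The lines of SCD, FASN and ELOVL6 climb to 5.87, 4.05 and 3.90 at week 15, whereas MLXIPL is filled at week 23 alone, at 0.68, with all biopsies included.

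The rise came in steps. At week 0, 5 members were called higher than at week -3 (SCD, THRSP, FASN, ELOVL6 and SREBF1; 8.03% of all genes were called, 3.14% higher and 4.89% lower), SCD by 2.76 ± 0.53 and the other 4 by between 1.07 and 1.44. The animals were divided at that week, with SCD between 31.9 RPKM in F1019 and 1785 RPKM in F1024 and a median of 105 RPKM, and 6 of 12 were inside the week -3 range. With the animal as a block 3 members were called at week 0, since FASN (1.03, adjusted p = 0.14) and ELOVL6 (0.81, adjusted p = 0.13) no longer passed. At week 3, 4 members were called, all higher (background 6.21%, with 2.53% higher and 3.67% lower), again with SCD in front at 3.13 ± 0.54. MLXIPL was at -0.53 ± 0.19 at that week, under the fold limit (adjusted p = 0.0416), and it passed that limit without F1016 as given above. DESeq2 added ACLY at week 0 (1.06, adjusted p = 0.0333). Between weeks 3 and 7 all 12 placebo animals rose in FASN, ACACA, ACLY, SCD, ELOVL6, THRSP, SREBF1 and AACS. The median ratio between these biopsies was 6.53 for FASN, 6.20 for SCD, 6.25 for ELOVL6 and 6.13 for AACS, but 2.37 for SREBF1 and 1.32 for MLXIPL. The highest ratios of FASN (35.6) and SCD (56.2) were those of F1021. Its week 3 biopsy held 12.3% muscle and 3.67% hepatocyte reads. By week 7, 9 members were called higher (background 14.9%, with 5.31% higher and 9.54% lower), and for ACACA, ACLY, SCD, ELOVL6, THRSP and AACS each of the 12 animals lay above the highest week -3 level. The shares of all genes that rose in every animal from week 3 to week 7, or separated fully by week 7, were not counted. At week 11 the count was again 9 (background 13.4%, with 5.19% higher and 8.21% lower).

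Late in the study the placebo animals diverged. At week 19, 8 members were called, all higher (background 6.87%, with 3.5% higher and 3.37% lower), although only 5 animals were biopsied. SCD was 3213 RPKM in M1011, 3177 RPKM in F1016, 2502 RPKM in F1019, 1382 RPKM in M1005 and 90.0 RPKM in M1008, so that M1008 alone lay inside the week -3 range. The same animal was lowest of the 5 for every member, for example FASN with 22.0 RPKM against 283, 645, 677 and 1172 RPKM. At week 23 all 10 members were called, 9 higher and ME1 lower (background 19.1%, with 8.75% higher and 10.4% lower). SCD then ranged from 75.9 RPKM in M1008, 101.5 in M1005, 132 in F1019 and 164 in F1016 to 693 in F1015, 1123 in M1009, 1217 in F1021, 1543 in M1011 and 2513 in M1001. Of the 8 animals with biopsies at weeks 15 and 23, SCD, FASN, ACLY, ELOVL6, ME1 and THRSP had each fallen below 0.5 times the week 15 level in 6. SREBF1 had fallen that far in 1 of the 8 animals, with a median ratio of 0.883, and MLXIPL was higher in 7 of the 8, with a median ratio of 1.62. At week 23 the T cell marker list (10 genes, all detected) took between 0.00755% and 0.0246% of reads in placebo livers. At week -3 it took 0.00207% to 0.00953%, and 7 of its 10 genes were called higher at week 23. Against week -3, 20 of 20 muscle and 7 of 9 adipocyte markers were called lower, with F1016 among the week -3 biopsies. F1016 held 14.6% muscle and 0.180% adipocyte reads at week -3. Placebo medians at weeks -3 and 23 were 0.0465% and 0.0371% for muscle, and 0.0349% and 0.0275% for adipocyte markers. The part of these 3 lists in the member values was not tested.

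**Figure D3:**
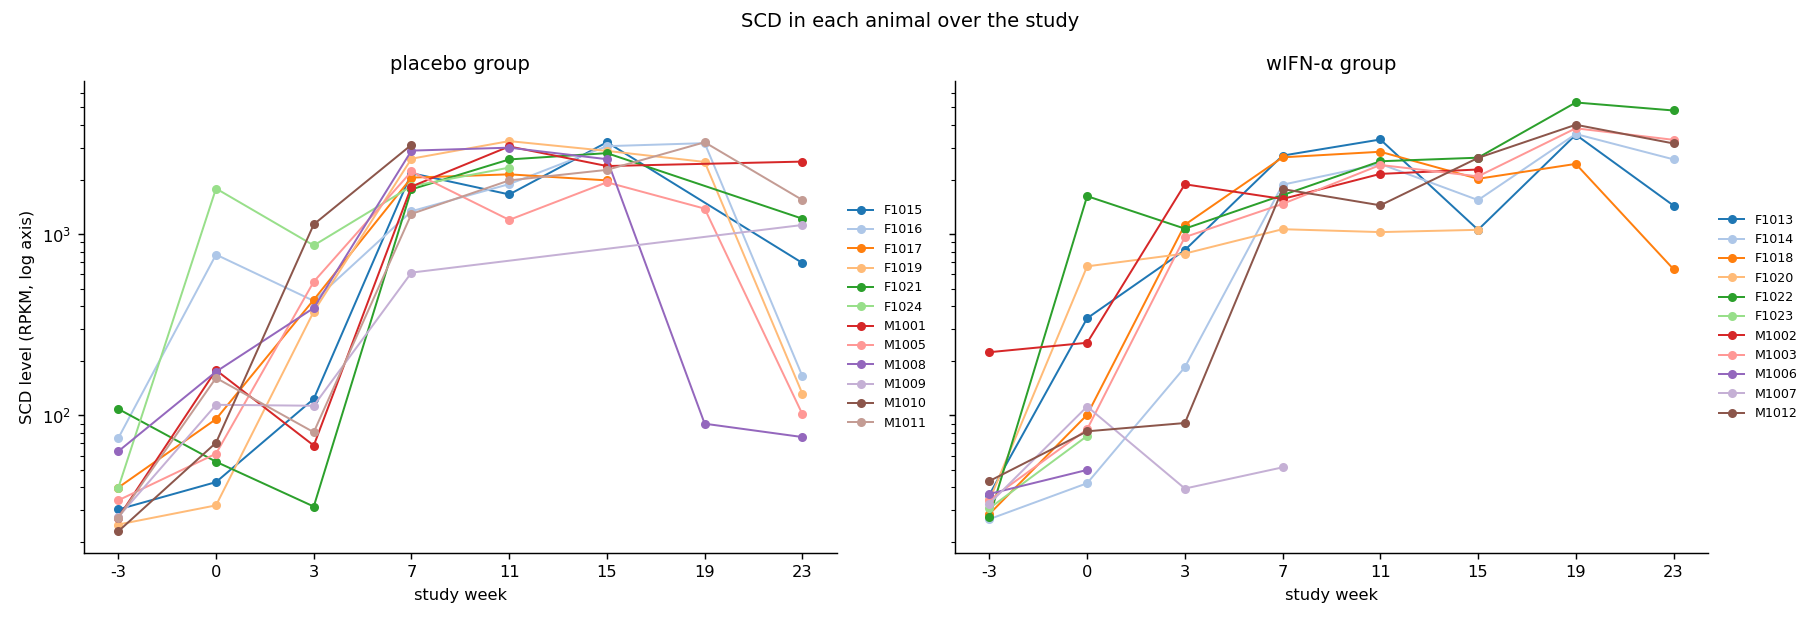
SCD level (TMM-scaled RPKM, log axis) of each animal by study week, 1 line per animal, placebo in the left panel and wIFN-α in the right. Placebo animals rise together between weeks 3 and 7 and part after week 15, to between 75.9 and 2513 RPKM at week 23. The 6 treated animals still sampled at week 23 lie between 641 and 4810.3 RPKM, each below its own week 19 level.

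The comparison of wIFN-α with placebo at the same week asks whether interferon treatment altered these genes. Between 1 and 3 of the 10 members were called at each dosing week, where between 10.8% (week 3) and 22.3% (week 15) of all genes were called. The counts were thus near the share over all genes. MLXIPL was lower at 4 of the 5 dosing weeks, ACACA was lower at weeks 7 and 15, and SREBF1, AACS and ELOVL6 were lower at 1 week each. ACLY was the only member that was higher, at weeks 3 and 11. FASN, SCD, ME1 and THRSP were not called by edgeR at any week. Before treatment, at week -3, none of the 10 was called, nor was any of the 14963 genes tested (0%; 130 had an unadjusted p under 0.05), and DESeq2 also called no member. No member had an unadjusted p under 0.05 at that week. The comparisons of different weeks draw on the same animals and are not independent of each other. For the members and the other lipid genes, animals above or below every animal of the other group are counted below. The share of all genes that separated as fully was not counted at any week.

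At week 0, the first biopsy on treatment, 2 members were called and both were lower, where 18.5% of all genes were called, 10.3% higher and 8.15% lower. MLXIPL had a lowest, median and highest level of 7.32, 13.6 and 18.2 RPKM in 11 treated animals and 16.6, 25.3 and 36.9 RPKM in 12 placebo animals. All but 1 of the placebo animals exceeded every treated animal, and the log2 difference was -1.07 ± 0.17 (adjusted p = 2.84e-05). SREBF1 had 4.68, 9.91 and 42.7 RPKM with wIFN-α and 10.5, 31.5 and 97.6 RPKM with placebo (-1.24 ± 0.43, adjusted p = 0.0266). The SREBF1 difference did not pass without the biopsies over 1% muscle reads (-1.12, adjusted p = 0.0839) or with the animal as a block (-1.29, adjusted p = 0.0693), which left MLXIPL alone called. The treated animal F1022 had the highest level of its group in 9 of the 10 members at this week, with 1620.3 RPKM of SCD against a median of 101 RPKM. Without it ACACA (-1.53, adjusted p = 0.00844) and THRSP (-1.31, adjusted p = 0.0337) were also called lower.

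At week 3 ACLY was the 1 member called (10.8% of all genes were called, 7.24% higher and 3.54% lower). It had 9.07, 29.1 and 72.9 RPKM in 9 treated animals and 4.66, 10.7 and 30.5 RPKM in 12 placebo animals, a difference of 1.25 ± 0.37 (adjusted p = 0.0209), and 4 of the 9 treated animals were above every placebo animal. This call depended on M1002, whose biopsy had the highest ACLY level (0.98, adjusted p = 0.0646 without it), and on the biopsies with over 1% muscle reads (1.04, adjusted p = 0.172 without them). With the animal as a block it was 1.04 with an adjusted p of 0.254. MLXIPL was 7.09, 18.8 and 39.4 RPKM in treated and 12.9, 25.6 and 42.8 RPKM in placebo animals at this week (-0.39 ± 0.23, adjusted p = 0.245). The highest treated level was that of F1013, the biopsy with placebo-like MX1, and without it the MLXIPL difference was -0.59 and was called (adjusted p = 0.0466), beside ACLY.

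MLXIPL was also lower at the high dose, as it had been at the first biopsy on treatment. At week 7, 3 members were called, all lower (background 21.6%, with 11.4% higher and 10.1% lower). MLXIPL had 10.7, 16.3 and 22.2 RPKM in 9 treated animals and 21.3, 33.7 and 47.6 RPKM in 12 placebo animals, with 8 of the 9 treated animals below every placebo animal (-1.04 ± 0.14, adjusted p = 2.61e-06). ACACA had 1.08, 11.6 and 23.3 RPKM against 6.91, 24.1 and 41.8 RPKM, and 7 of 12 placebo animals were above every treated one (-0.995 ± 0.362, adjusted p = 0.0283). AACS had 0.287, 2.05 and 7.50 RPKM against 2.24, 5.5 and 19.9 RPKM (-1.37 ± 0.47, adjusted p = 0.0195). The lowest ACACA and AACS values both came from M1007, a treated animal that was later found dead. With the animal as a block only MLXIPL stayed past the threshold (ACACA -1.36, adjusted p = 0.0595, and AACS -1.69, adjusted p = 0.0535). Without M1003 or without F1020, ACACA was not called (adjusted p = 0.051 and 0.0536).

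At week 11, 2 members were called (background 20.5%, with 12.6% higher and 7.98% lower). MLXIPL was lower, with 12.7, 20.1 and 27.1 RPKM in 8 treated animals and 23, 34.3 and 47.3 RPKM in 10 placebo animals (-0.75 ± 0.15, adjusted p = 0.000502), and 8 placebo animals exceeded every treated animal. ACLY was higher, with 25.4, 111 and 156 RPKM against 15.6, 42.0 and 99.1 RPKM (1.08 ± 0.38, adjusted p = 0.0301). There, 6 of 8 treated animals were above every placebo animal. Neither passed with the animal as a block (adjusted p = 0.0693 for MLXIPL and 0.327 for ACLY), and ACLY was lost without F1018 (0.97, adjusted p = 0.0611) and without the biopsies over 1% muscle reads (adjusted p = 0.0505).

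By week 15, the last biopsy on treatment, MLXIPL did not overlap between the groups, and the share of all genes without overlap was not counted. It had 8.08, 20.4 and 29.8 RPKM in 8 treated animals and 30.2, 40.3 and 47.4 RPKM in 9 placebo animals (-0.98 ± 0.18, adjusted p = 0.000316). ACACA had 3.77, 12.6 and 18.1 RPKM against 15.6, 23.6 and 50.4 RPKM, and 8 of 9 placebo animals exceeded every treated animal (-1.22 ± 0.29, adjusted p = 0.00288). ELOVL6 had 59.5, 124 and 210.0 RPKM against 134, 203 and 264 RPKM (-0.63 ± 0.21, adjusted p = 0.0207), with 5 of 8 treated animals below every placebo animal. These 3 were the members called, all lower, against 22.3% of all genes called, 13.4% higher and 8.83% lower. The ELOVL6 fold change of 1.55 was close to the limit, and it fell under 1.5 without treated F1013 or F1020 or without placebo F1015 (log2 differences of -0.57, -0.53 and -0.58). With the animal as a block its adjusted p was 0.175. SREBF1 was at -0.67 ± 0.28 with an adjusted p of 0.059. It was called on all animals by DESeq2 (-0.70, adjusted p = 0.0253) and with RLE size factors (-0.70, adjusted p = 0.04999), and also without placebo M1011 or without treated M1012. Over all 10 members the median log2 difference was -0.60, against -0.01 over all genes, and ACLY was the 1 member with a positive value (0.28 ± 0.39, adjusted p = 0.603).

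FASN and SCD, which make and desaturate the fatty acid, were not called by edgeR at any dosing week. At week 0 they differed by -0.45 ± 0.74 and 0.06 ± 0.73, at week 3 by 0.97 ± 0.55 and 1.02 ± 0.62, and at week 7 by -0.65 ± 0.41 and -0.27 ± 0.38. DESeq2 called FASN lower at week 0 (-1.59, adjusted p = 0.0235). At week 15 FASN had 101, 367 and 592 RPKM with wIFN-α and 318, 550.3 and 827 RPKM with placebo (-0.58 ± 0.31, adjusted p = 0.145), and SCD had 1056, 2052 and 2641 RPKM against 1932, 2591 and 3214 RPKM (-0.40 ± 0.20, adjusted p = 0.111). At week 11 they differed by 0.06 ± 0.31 and -0.02 ± 0.21. ME1 at week 15 was at -0.44 ± 0.20 (adjusted p = 0.0925) and THRSP at -0.42 ± 0.29 (adjusted p = 0.251). Marker genes of other cells moved at the same week: 8 of 10 T cell markers and 11 of 12 proliferation markers were called higher with wIFN-α, and the T cell list took 0.0117% to 0.0289% of reads in treated and 0.00511% to 0.0111% in placebo livers. Of the 8 bile duct markers 2 were called higher (3 at week 0 and 3 at week 7), and that list took 0.0170% to 0.0256% in treated and 0.0103% to 0.0190% in placebo livers at week 15. Of the 10 macrophage markers 3 were called higher and 1 lower. No marker of these lists was at 0, and their part in the member values was not tested. The hepatocyte list took 7.27% to 11.4% and 7.38% to 9.78%, ranges that overlapped.

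**Figure D4:**
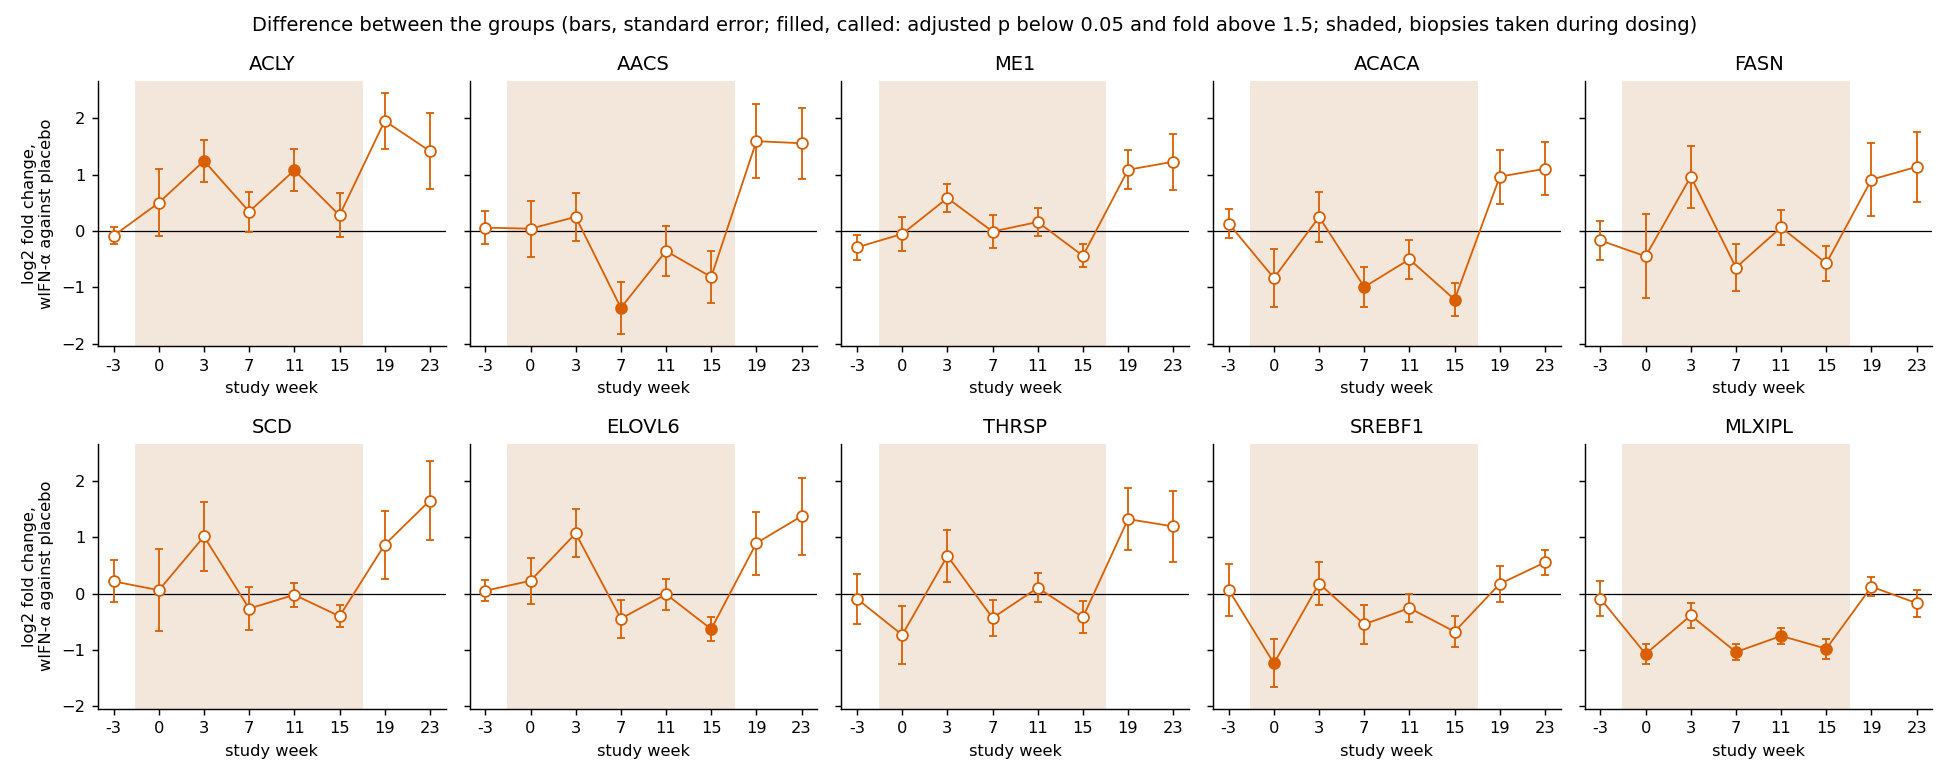
Log2 difference between wIFN-α and placebo (y axis, with SE bars) at each study week (x axis) for the 10 genes, 1 panel per gene, with the dosing weeks shaded; filled points have an adjusted p below 0.05 and a fold change above 1.5. MLXIPL lies between -1.07 and -0.39 over the 5 dosing weeks and at 0.12 and -0.17 at weeks 19 and 23, and ACLY is above 0 at each week from 0 to 23.

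Between week 15 and week 19 the sign of the difference turned for most members. During dosing the sign had not been constant. At week 3 only MLXIPL was negative (-0.39), with FASN at 0.97 and SCD at 1.02, and at week 15 only ACLY was positive (0.28). At week 19 MLXIPL was at 38.0, 43.4 and 58.0 RPKM in 6 treated animals, and in the 5 placebo animals it was 27.8, 34.3, 42.8, 44.2 and 56.8 RPKM, a difference of 0.12 ± 0.17. All 6 treated animals were above every placebo animal for ACLY (78.4, 126 and 298 RPKM against 9.26, 22.0, 43.0, 52.9 and 70.5 RPKM), a log2 difference of 1.96 ± 0.49 with an adjusted p of 0.297. None of the 10 members was called at week 19 or week 23, and none of the 14715 and 14956 genes tested was (0%; 1859 and 2416 had an unadjusted p under 0.05). Of the members, 4 at week 19 and 5 at week 23 had an unadjusted p under 0.05. DESeq2 called ACLY at week 19 and no member at week 23. The median log2 difference over the members was 0.94 at week 19 and 1.21 at week 23, against -0.01 and -0.05 over all genes.

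The change of the effect itself was tested in a single fit over all weeks, as the mean effect at weeks 19 and 23 minus that at weeks 7, 11 and 15. By this contrast 8 of 10 members were called, all with a more positive difference after treatment, where 36.6% of all 16232 genes were called, 16.7% in that direction and 19.8% in the other. AACS changed most (2.44 ± 0.53, adjusted p = 7.85e-05), followed by ACACA (1.96 ± 0.46, adjusted p = 0.000238). THRSP, ELOVL6, SCD and FASN changed by 1.52, 1.51, 1.5 and 1.43, ME1 by 1.27 and MLXIPL by 0.92 ± 0.24 (adjusted p = 0.000994). ACLY (1.13 ± 0.49, adjusted p = 0.06) and SREBF1 (0.88 ± 0.41, adjusted p = 0.0869) were not called, and FASN (adjusted p = 0.0451) was lost without the biopsies over 1% muscle reads and under DESeq2. SREBF1 was called without those biopsies (0.95, adjusted p = 0.0399) and ACLY was called by DESeq2 (1.14, adjusted p = 0.0413). In the treated animals themselves, all 6 with biopsies at weeks 15 and 19 rose in 9 of 10 members, and 5 of 6 rose in ME1. The share of all genes that rose in all 6 animals was not counted. The median ratio was 12.9 for AACS, 4.69 for ACACA, 3.88 for ACLY, 3.29 for ELOVL6, 2.94 for FASN, 1.98 for MLXIPL, 1.93 for SCD and 1.62 for SREBF1. The week 15 biopsies of these animals were taken within hours of a dose and the week 19 biopsies were not, so the end of treatment and the time since the last injection cannot be told apart. From week 19 to week 23, 0 of the 6 were higher in FASN, ACACA, ACLY, SCD, ELOVL6, ME1 or AACS. In THRSP 1 of the 6 was higher, and in SREBF1 and MLXIPL 5 of the 6 were. Placebo animals fell over the same weeks: 0 of 5 were higher in SCD, ELOVL6, ACACA or ME1, and 1 of 5 in each of FASN, ACLY, THRSP and AACS. Median ratios in placebo and treated animals were 0.0734 and 0.757 for SCD, 0.105 and 0.628 for ELOVL6, and 0.386 and 0.367 for AACS. The share of all genes that fell in every animal was not counted. At week 23 SCD was 641 RPKM in F1018, 1437 in F1013, 2585 in F1014, 3165 in M1012, 3314 in M1003 and 4810.3 in F1022, so 4 of the 6 lay above every placebo animal.

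Whether the dose mattered was asked with the mean effect at weeks 7, 11 and 15 minus that at weeks 0 and 3. None of the 10 members was called by edgeR (5.5% of all genes were, 3.86% higher and 1.64% lower) or by DESeq2, and AACS and ELOVL6, 2 members, had an unadjusted p under 0.05. ELOVL6 was nearest, at -1.02 ± 0.36 (adjusted p = 0.0751), and with the animal as a block it was called at -1.38 (adjusted p = 0.00768). AACS was at -1.0 ± 0.44 (adjusted p = 0.18) and MLXIPL at -0.20 ± 0.20 (adjusted p = 0.639). Without the week 3 biopsy of F1013 no member was called either, and MLXIPL was at -0.10 (adjusted p = 0.857). The dose changed together with the time on treatment, so the effects of these cannot be told apart.

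The other lipid genes of the liver were described from 7 lists, each by the number called higher and lower. In placebo animals between weeks -3 and 15, enzymes that supply acetyl-CoA, NADPH and sugar phosphates had 6 higher and 2 lower of 19 tested, among them ACSS2 (acetyl-CoA synthetase, log2 difference 4.07 ± 0.53) and TKT (transketolase, 1.98 ± 0.24) higher and PC (pyruvate carboxylase, -1.04 ± 0.18) lower. For elongation, desaturation and activation the numbers were 7 and 4 of 19, with DBI (acyl-CoA binding protein, 1.71 ± 0.21) and ACACB (the mitochondrial acetyl-CoA carboxylase, 2.14 ± 0.29) higher and ELOVL2 (-1.78 ± 0.28), which lengthens polyunsaturated fatty acids, lower. Triglyceride synthesis and droplet genes were split, 9 higher and 8 lower of 30. GPAM (2.18 ± 0.39), the first acyltransferase of glycerolipid synthesis, and DGAT2 (1.54 ± 0.31), the last, were higher, and LPIN3 (-1.36 ± 0.18), a phosphatidate phosphatase, was lower.

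Regulators of lipogenic transcription had 4 higher and 4 lower of 32, and the 3 of them with the lowest p over time, RXRA (-0.53), INSR (0.38) and THRB (0.13), were all under the fold limit at week 15. Targets of ChREBP and LXR outside lipogenesis had 2 higher and 1 lower of 8, with LPCAT3 at 1.30, the hepatokine gene FGF21 at -4.37 and ARRDC4 at -0.23. Fatty acid synthesis in the mitochondrion, a separate pathway, had 0 of 10 called (CBR4 0.30, MCAT -0.48 and HSD17B8 -0.18) by edgeR at week 15, where 3 had an unadjusted p under 0.05. The fasting response had 1 higher and 6 lower of 13, beside 5.39% higher and 9.45% lower over all genes, and CPT1A, which admits fatty acids to mitochondrial oxidation, was among the lower ones. CPT1A had 12.7, 97.7 and 133 RPKM at week -3 and 8.48, 15.2 and 20.0 RPKM at week 15 (-2.61 ± 0.36). CREB3L3 was at -1.95 ± 0.32. The list medians at week 15 were 0.27 for supply, 0.33 for elongation, -0.03 for triglycerides, -0.07 for regulators, 0.08 for ChREBP and LXR targets, -0.02 for the mitochondrial pathway and -0.78 for fasting, against -0.07 over all genes and 2.68 for the 10 members.

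With wIFN-α at week 15, the triglyceride genes had 0 higher and 8 lower of 29 tested, where 13.4% of all genes were called higher and 8.83% lower. GPAM had 2.71, 11.2 and 17.5 RPKM in treated and 21.5, 27.4 and 57.1 RPKM in placebo animals, without overlap (-1.61 ± 0.35, adjusted p = 0.0012). DGAT2 had 31.3, 81.4 and 121 RPKM against 136, 198 and 265 RPKM, also without overlap (-1.25 ± 0.24, adjusted p = 0.000466). LPIN3 (-0.66) and AGPAT2 (-0.63) were lower as well. The supply list had 0 higher and 2 lower of 19, TKT (-0.66 ± 0.19) and PKLR (-0.67 ± 0.22), the pyruvate kinase of liver. Elongation, desaturation and activation had FADS6 lower (-1.98 ± 0.36) and ACSL4 higher (1.02 ± 0.32), and the mitochondrial list had CBR4 lower (-0.76 ± 0.16) of 10.

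Regulators on treatment had 4 higher and 6 lower of 32. USF1, which binds E-boxes of lipogenic promoters, had 19.9, 22.5 and 23.7 RPKM with wIFN-α and 8.97, 11.5 and 13.8 RPKM with placebo (0.96 ± 0.07, adjusted p = 4.26e-09). PPARGC1B, a coactivator of SREBP-1, was lower at -1.40 ± 0.17, PPARA, the receptor of the fasting response, at -0.93 ± 0.11 and THRB, the liver thyroid hormone receptor, at -0.70 ± 0.13. Of the 8 ChREBP and LXR targets 1 was called: TXNIP, a glucose-responsive ChREBP target, was higher (60.2, 87.8 and 108 RPKM against 24.0, 44.0 and 60.7 RPKM; 0.98 ± 0.18, adjusted p = 0.000279), while MLXIPL itself was lower. None of the 13 fasting genes was called by edgeR at week 15, where 4 had an unadjusted p under 0.05 (CPT1A was at 0.31 ± 0.19, adjusted p = 0.203). The list medians were 0.07, -0.14, -0.31, -0.11, 0.34, -0.39 and 0.15 for supply, elongation, triglycerides, regulators, ChREBP and LXR targets, mitochondrial synthesis and fasting, against -0.01 over all genes.

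**Figure D5:**
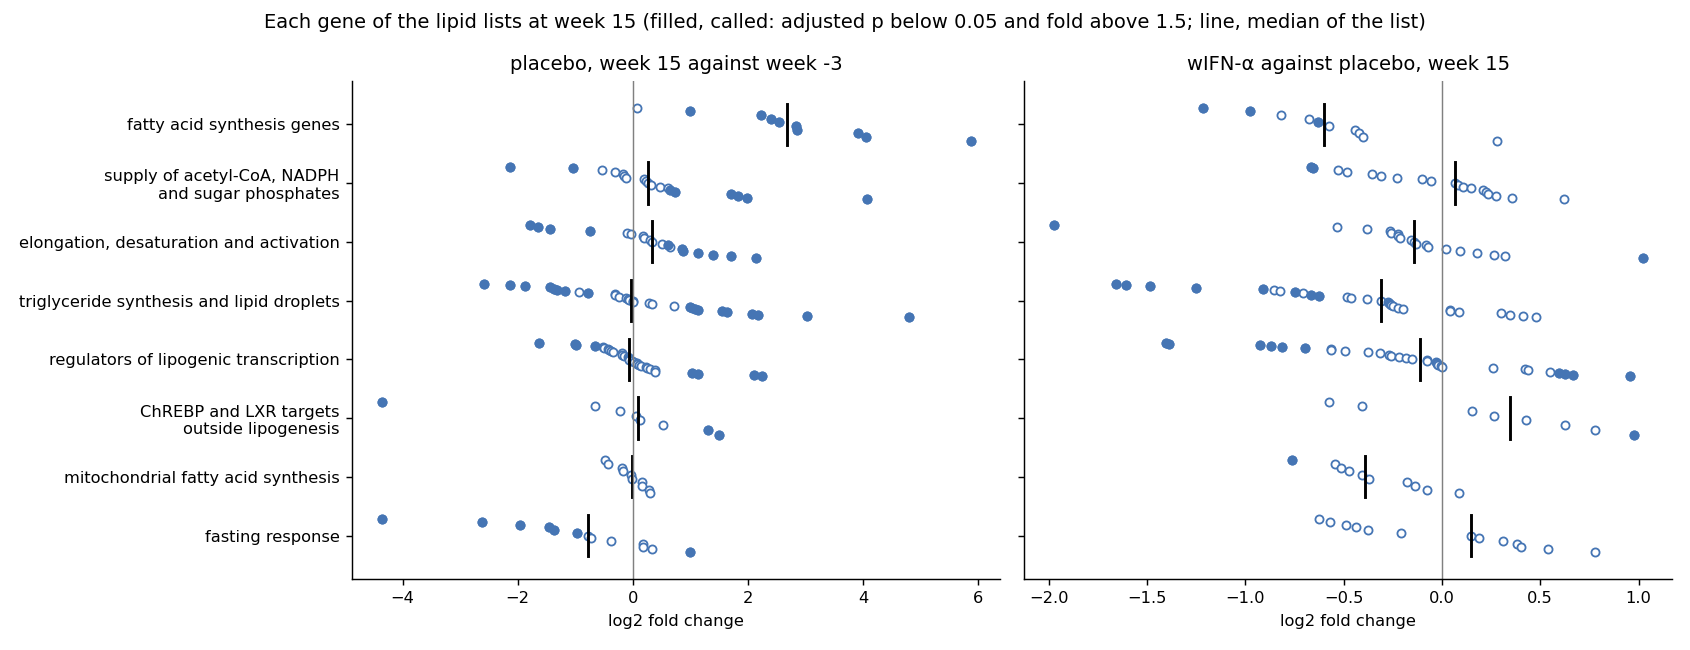
Log2 difference of every gene of the 7 lipid lists and of the 10 fatty acid synthesis genes, for placebo week 15 against week -3 (left) and wIFN-α against placebo at week 15 (right), with 1 point per gene, filled where called, and the list median as a bar. The 10 genes lie at a median of 2.68 on the left and -0.60 on the right, and the triglyceride list at -0.03 and -0.31.

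How far the members moved together was described over the 92 untreated biopsies, those of placebo animals at all weeks and of treated animals at week -3, as correlations of log2 levels; the biopsies share animals, weeks and libraries. The 28 pairs formed by the 8 members other than ME1 and MLXIPL had correlations between 0.55 and 0.97 (median 0.88), and between 0.17 and 0.94 (median 0.76) after the week means were removed. ACACA and FASN were the closest pair, at 0.97. ME1 had a median correlation of 0.61 with the other 9 members, and MLXIPL one of 0.36 with a range from -0.04 to 0.55. Of the 13922 genes compared with the mean of the members, the 10 most alike outside the list were ACACB (0.96), ECHDC1, CCDC59, RDH11, ACSS2, LOC100652751, PNPLA3, C1QL3, C20orf3 and AOC3 (0.94). ACACB, ACSS2 and PNPLA3, a droplet protein of hepatocytes, are also on the lipid lists above.

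Sex and sequencing lane were checked because both are in the labels. The labels give a lane number and a barcode, and the same lane and barcode recur for different biopsies. A lane number can therefore pool several sequencing batches, and differences within a lane are not differences within a batch. A biopsy with several runs was given the lane of its deepest run. At week -3, with 12 females and 11 males, none of the 10 members was called between the sexes (0.0668% of all genes were called, 10 of 14963, and 2585 had an unadjusted p under 0.05), and DESeq2 also called none. The females include F1016 and F1018, whose week -3 biopsies held few hepatocyte and many muscle reads, which limits this comparison of livers. ACACA and ACLY were the 2 members with an unadjusted p under 0.05, and ACLY came nearest, higher in males by 0.46 ± 0.12 (adjusted p = 0.184). Within each of the 7 lanes, the mean log2 difference between treated and placebo biopsies of the dosing weeks, each taken relative to the placebo mean of its week, was negative for MLXIPL (from -1.07 to -0.74), for ACACA (from -1.12 to -0.34) and for AACS (from -0.97 to -0.06), and positive for ACLY (from 0.06 to 1.28). SCD was higher at weeks 7 to 15 than at weeks -3 to 3 in placebo animals of every lane, by between 3.27 and 5.18. With lane as a term in the fit, the ACACA difference at week 15 was -1.09 with an adjusted p of 0.0595.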

How the data were processed

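Liver RNA of 164 biopsies was sequenced in 203 runs. The authors prepared poly(A) libraries (TruSeq), demultiplexed them with CASAVA, inspected them with FastQC, aligned read pairs with Bowtie2 to their own woodchuck transcriptome, counted with SAMtools and normalized with DESeq; versions, and whether counting used strand, are not given in the sources used here. The deposited files list, per gene with reads, an RPKM value and an expected count (118 of 3368022 nonzero counts were not whole). Genes not listed in a run were taken as 0, and the virus row was left out of library sizes and tests.

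Here the deposited expected counts were summed over the runs of a biopsy (38 biopsies had several) and rounded. Groups came from the labels. Label weeks 1, 4, 8, 12, 16, 20 and 24 were taken as the study's weeks 0, 3, 7, 11, 15, 19 and 23. The 7 biopsies of M1004 and 8 taken at other times were left out, which left 149. Each comparison was fitted across all genes with edgeR 4.0.16 in R 4.3.3 (filterByExpr, TMM, quasi-likelihood F test, Benjamini-Hochberg adjustment over all genes tested). Calls required an adjusted p below 0.05 and a change of more than 1.5-fold, the fold limit being dropped for the F test over weeks and for the 2 contrasts between effects. Levels are RPKM recomputed from the summed counts, with gene length taken from the deposited RPKM and count columns. Alternatives were DESeq2 1.42.0, RLE size factors, no filter on low counts, the deepest run of each biopsy, a 2-fold limit, other choices of biopsies, covariates or blocks, and 89 fits without 1 animal. Biopsies of 1 animal deviated together in the placebo group (median correlation 0.305 over 244 same-animal pairs, 181 of them above 0.1, and -0.02 between animals), and the labels give the animal, so the animal was also used as a block. In simulated week 15 data (wIFN-α against placebo, 14803 genes), 18, 39, 47 and 49 of 50 genes changed 1.5-, 2-, 4- and 8-fold were recovered, and 5 unchanged genes were called.

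The 10 genes, the 7 lipid lists, the marker lists and the tests were chosen with earlier results of these data known. From each lipid list the text names at most 4 called genes with the lowest p at week 15 and at most 3 with the lowest p over time in placebo, and the 10 genes outside the list most correlated with the members. Leaving out F1016 and F1018 at week -3 and F1013 at week 3 was decided after seeing the data. RefSeq's Marmota monax annotation listed 9 of the 10 symbols. Intervals between biopsies measure the spread between animals.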

Additional observations from a re-analysis of the deposited data

Results flagged for a closer look

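Of 100 groups of 4 to 10 biopsies tested for 1 value far from the rest, 6 were picked out, and chance alone does so in about 1 group of 20. In placebo animals, SREBF1 at week 19 was 21.5 RPKM in M1008, where the next lowest of the 5 animals had 85.2 RPKM. Placebo animal M1001 stood high at week 23 in 3 genes: ACLY was 99.6 RPKM where the next highest animal had 36.2 RPKM, ME1 was 38.4 RPKM against 17.0 RPKM, and THRSP was 1257 RPKM against 627 RPKM. In treated animals at week 3, MLXIPL was 39.4 RPKM in F1013, the biopsy without an interferon response in MX1 and ISG15, against 21.3 RPKM in the next highest, and AACS was 4.74 RPKM in M1002 against 2.21 RPKM.

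The difference between wIFN-α and placebo changed between the high-dose weeks and the weeks after treatment in 8 genes, by the contrast of the effects themselves: by 2.44 on the log2 scale for AACS, 1.96 for ACACA, 1.52 for THRSP, 1.51 for ELOVL6, 1.5 for SCD, 1.43 for FASN, 1.27 for ME1 and 0.92 for MLXIPL. In this contrast 36.6% of all genes were called.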

How the results depend on the processing

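Counts of members called changed with the choice of biopsies and of the model, and no gene's difference turned its sign under any alternative in which it had been called. The placebo F test called 10 members in each of the fits without 1 animal. For wIFN-α against placebo, leaving out 1 animal at a time gave 2 to 4 members at week 0, 0 to 2 at week 3, 2 to 3 at week 7, 1 to 2 at week 11, 2 to 4 at week 15 and 0 at week 19. The animals that decided these counts are named in the report.

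Without the biopsies over 1% muscle reads, 1 member was called at week 0, 0 at week 3, 1 at week 11 and 3 in placebo animals at week 0 against week -3. With the animal as a replicate block (and week -3 subtracted for wIFN-α) the counts were 1 at week 0, 0 at week 3, 1 at week 7, 0 at week 11, 3 in placebo animals at week 0 against week -3, and 1 for the contrast between doses. The block moved no other count by more than 1.5 times. With M1004 included, 1 member was called at week 0, 2 at week 3 and 2 for the contrast between doses (AACS and ELOVL6). Without the week 3 biopsy of F1013, 2 members were called at week 3, and the counts for the contrasts between effects were 0 for dose and 8 after treatment. One fit of all weeks gave 2 at week 3, 1 at week 11 and 1 (ME1) at week 23; with lane as a term it gave 0 at week 3, 1 at week 11 and 1 at week 15. A 2-fold limit left 1 at week 11 and 1 at week 15. DESeq2 called 4 at week 0 (FASN at -1.59 and ELOVL6 at 0.82 were added), 2 at week 3 and 1 at week 19. The cause of these changes was not tested, except that fewer biopsies or a higher fold limit leave less to call. The limits are set by the number of animals, which fell to 5 and 6 at week 19, and for AACS by depth, since its lowest biopsy held 16 reads and repeat runs of a biopsy differed by up to 0.68 on the log2 scale.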

Other observations

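Values from biopsies outside the comparisons are given here scaled by depth alone. In treated animals found dead, SCD was 84.9 RPKM in F1020, 49.3 RPKM in F1023 and 361 RPKM in M1007, and MLXIPL was 44.4, 19.5 and 10.4 RPKM. In the placebo animal found dead, F1024, SCD was 2153 RPKM and MLXIPL 55.6 RPKM. Placebo biopsies labelled week 18 had SCD at 2205 RPKM (F1017) and 2217 RPKM (M1010). The treated animal M1006 had 50.5 RPKM of SCD at label week 3, which lies between study weeks 0 and 3, and M1002 had 3519 RPKM at label week 26. In M1004, the animal left out as probably clearing WHV, SCD was 60.6 RPKM at week -3, 1861 at week 0, 3018 at week 3, 3014 at week 7, 3272 at week 11, 3336 at week 15 and 5326 RPKM at week 19. Its MLXIPL was 41.0 RPKM at week -3, between 13.4 and 28 RPKM at weeks 0 to 15 and 49.4 RPKM at week 19.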
